A study of Drosophila melanogaster with 4 samples.

Results

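The arrays were searched for 10 genes of insulin, FOXO and adipokinetic hormone signalling, namely the insulin-like peptides Ilp2, Ilp3 and Ilp6, the insulin-binding protein ImpL2, the insulin receptor InR and its substrate chico, the transcription factor foxo and its target Thor, the kinase S6k, and the adipokinetic hormone Akh. A probe set was taken as a member where the platform annotation gave it 1 gene symbol and that symbol was one of the 10. This found 7 probe sets of the 13966 on the array that are not Affymetrix controls, 1 for each of 7 genes. Ilp3, Ilp6 and Thor had no such probe set and were not analysed here. In the RefSeq gene order Ilp2 lies between Ilp1 and Ilp3, with Ilp4 and Ilp5 close by, and of these 5 neighbouring peptide genes Ilp2 was the one with a probe set of its own.

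The RNA came from whole adult females of the strain y, w, which carries mutations for yellow body and white eyes in both groups. The JH III group received 0.1 µl of acetone holding juvenile hormone III at 187 mM on the body surface, and the acetone group received 0.1 µl of acetone alone. All females had been taken off yeast within an hour of emerging as adults and kept so for 5 days, which the labels give as a way to lower the flies' own hormone, and were frozen 12 hours after treatment. Each group had 2 pools of 30 females, and each pool was measured on 1 Affymetrix DrosGenome1 array. There was no yeast-fed group, so the levels below are those of yeast-deprived females only.

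Insulin-like peptides of the fly are secreted by brain neurons and other tissues and act on a single tyrosine kinase receptor, InR. The receptor works through the substrate protein Chico and the kinase Akt, which holds the transcription factor FOXO out of the nucleus. When insulin signalling is low, as in starved flies, FOXO enters the nucleus and activates genes that include InR itself and Thor, the inhibitor of translation initiation 4E-BP. Adipokinetic hormone acts in the opposite sense on stores, releasing lipid and sugar from the fat body. It is made in the corpora cardiaca, neuroendocrine cells next to the corpora allata that make juvenile hormone, and mutants of InR are known for low juvenile hormone synthesis.

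Among the 7 members 0 passed an adjusted p of 0.05 for JH III against acetone (limma, Benjamini-Hochberg over all 10474 probe sets tested), where 0.162% of all tested probe sets did, 0.0286% higher and 0.134% lower. After quantile normalization or median centring 2 probe sets were called, both higher. At an unadjusted p under 0.05 there were also 0 of 7, against 7.29% of all tested (3.54% higher, 3.75% lower). The genes Ilp2, ImpL2, InR, chico and S6k differed by less than 0.25 on the log2 scale. The 2 larger differences were in foxo, 1.14 higher with JH III, and Akh, -1.06. The members' median difference was -0.02, beside 0.10 over all tested probe sets, and the lowest adjusted p among them was 0.694. In 1 member, foxo, the groups did not overlap, beside 37.5% of all tested probe sets. With 2 arrays against 2 an exact permutation test cannot give a p under 0.333.

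The arrays themselves were unequal. JH III replicate 1 gave correlations of 0.785 to 0.790 with the other arrays over all probe sets, and the other 3 arrays correlated among themselves at 0.861 to 0.883. Hybridisation spikes, bacterial and phage transcripts of the standard Affymetrix protocol, had a median signal of 32593 on JH III replicate 1 and 13427 on replicate 2, against 4425 and 11755 on the acetone arrays. GAPDH gave 2.32 and 5.75 times as much signal at its 3' as at its 5' end on the JH III arrays, against 15.5 and 10.2 times on the acetone arrays. Both acetone arrays were scanned before both JH III arrays on the same day, so that scan order and treatment cannot be told apart. Acetone replicate 1 came from another chip lot than the other 3. Of 10 ovary markers 5 exceeded the control level defined below on all 4 arrays, and of 10 markers of testis and male accessory gland 1 did.

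The control level was taken as the 95th percentile of 15 probe sets for bacterial transcripts that were not added, and it was 420 and 252 on the JH III arrays and 151 and 309 on the acetone arrays. Ilp2, ImpL2, chico and S6k exceeded it on all 4 arrays. Akh exceeded it on 3, and InR and foxo on 1 each. Against the highest of the 15 controls in place of their 95th percentile, Ilp2 and chico exceeded the level on 3 arrays, falling short on JH III replicate 1. A level is given against these controls only, because signals of different probe sets are not on a common scale.

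**Figure D1:**
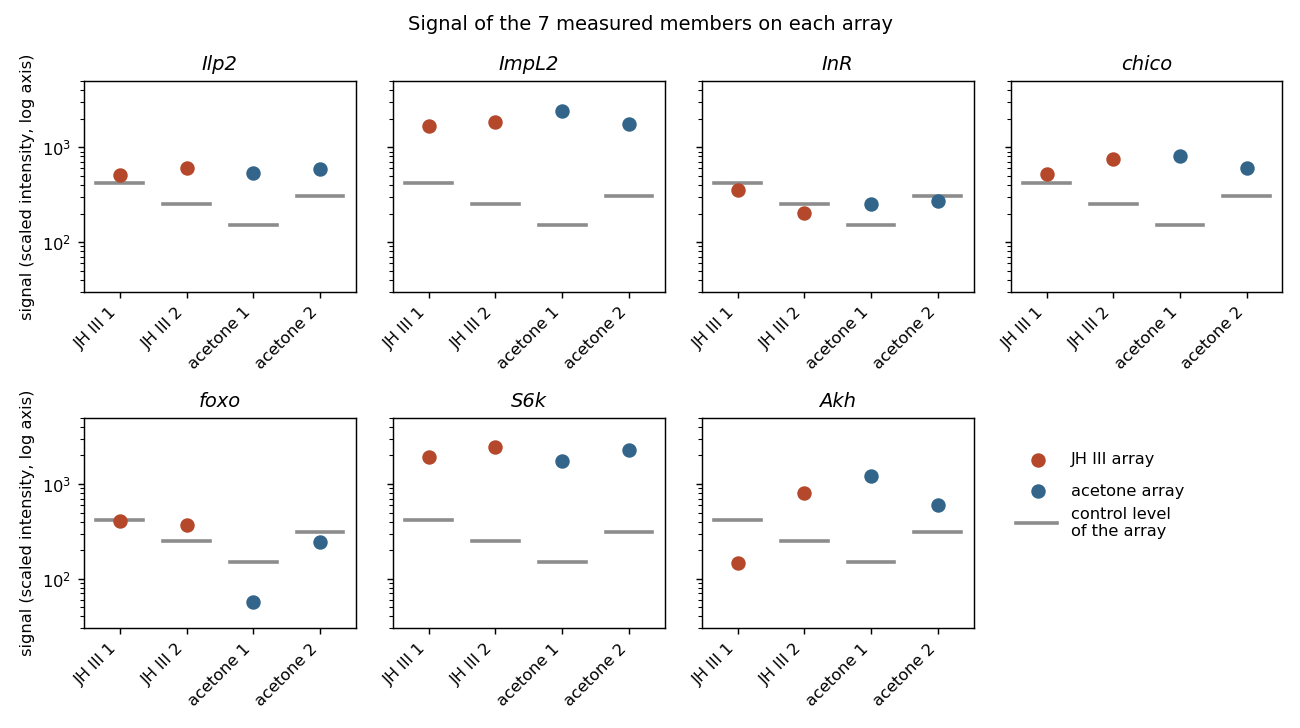
Signal of the 7 members on each array (log axis, scaled intensity), with JH III arrays in red and acetone arrays in blue. Grey bars mark the control level of each array. Ilp2, ImpL2, chico and S6k lie above it on all 4 arrays, and foxo on 1.

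Among the ligands, Ilp2 encodes the main insulin-like peptide of the neurosecretory cells of the brain. Its signal was 511 and 604 with JH III, against 536 and 590 in acetone. The acetone values lie between the JH III values, so the groups overlap. The log2 difference was -0.02 ± 0.51 (SE), with a 95% interval of -1.04 to 1.00 (limma adjusted p = 0.998). Ilp2 also repeated closely between arrays of a group. The gap between its JH III arrays was smaller than in most probe sets, at percentile 18.5 of all tested, and that between its acetone arrays at percentile 13.0. It stood 1.22 and 2.40 times over the control level with JH III, and 3.56 and 1.91 times in acetone.

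ImpL2 encodes a secreted immunoglobulin-type protein that binds insulin-like peptides and dampens their action. Its signal was 1666 and 1840 with JH III, against 2403 and 1750 in acetone. One acetone array was the highest and the other lay between the JH III arrays. The log2 difference was -0.22 ± 0.37 (SE), interval -0.95 to 0.51 (limma adjusted p = 0.919). Without acetone replicate 1, the high array, the difference was 0.00. The probe set was far from background, at 3.97 and 7.31 times the control level with JH III and 15.9 and 5.67 times in acetone.

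InR, the receptor of these peptides, had signals of 356 and 202 with JH III and 249 and 270 in acetone. The acetone arrays again lay between the JH III arrays. InR exceeded the control level on acetone replicate 1 alone, where it reached 1.65 times that level, and was at 0.80 to 0.88 times on the other 3. The log2 difference was 0.05 ± 0.70 (SE), and its interval, -1.34 to 1.44, was the second widest of the members (limma adjusted p = 0.992). A difference in this FOXO target would therefore have been hard to detect with these probes.

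Chico is the insulin receptor substrate of the fly, the adaptor that links the receptor to phosphatidylinositol 3-kinase. The chico probe set had 520 and 760 with JH III, against 806 and 611 in acetone, with overlapping groups. Its log2 difference was -0.14 ± 0.48 (SE), interval -1.10 to 0.82 (limma adjusted p = 0.960). It was above the control level on every array, by 1.24 and 3.02 times with JH III and 5.35 and 1.98 times in acetone.

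The transcription factor foxo, which insulin signalling restrains, was the member with the largest positive difference. Its signal was 408 and 373 with JH III, against 56.5 and 247 in acetone. Both JH III arrays stood above both acetone arrays, an arrangement found in 22.2% of all tested probe sets. The log2 difference was 1.14 ± 0.73 (SE), interval -0.32 to 2.60 (unadjusted p = 0.123, limma adjusted p = 0.767). The JH III arrays repeated closely, and the acetone arrays lay 4.37-fold apart, a gap at percentile 86.8 of all tested. Without acetone replicate 1 the difference was 0.52, and without acetone replicate 2 it was 1.76. Only JH III replicate 2 exceeded its control level, at 1.48 times, while JH III replicate 1 was at 0.97 times and the acetone arrays were at 0.37 and 0.80 times, so that no fold was bounded. The order of the arrays by foxo signal was also their order by median signal of all probe sets and by hybridisation spikes, an order that 8.3% of tested probe sets shared. The part of those array differences in the foxo values was not tested beyond rescaling, which left 0.90 after each array was centred on its median.

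S6k encodes the ribosomal protein S6 kinase, which the TOR kinase activates when nutrients and insulin are plentiful. Its signal was 1914 and 2482 with JH III and 1731 and 2273 in acetone. The groups overlapped, and replicate 2 was the higher array in both. The log2 difference was 0.13 ± 0.36 (SE), interval -0.59 to 0.85, the narrowest interval of the members (limma adjusted p = 0.951). The probe set stood 4.56 and 9.86 times over the control level with JH III and 11.5 and 7.36 times in acetone. After each array was centred on its median, which moves every difference by -0.24, S6k was at -0.11 and InR at -0.19.

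Akh, the peptide hormone that mobilises fat body stores, had the lowest unadjusted p of the members and the widest gap between replicates. Its signal was 145 and 808 with JH III, against 1202 and 607 in acetone. JH III replicate 1 was far below the other 3 arrays, and replicate 2 lay between the acetone arrays, so that the groups overlapped. The JH III arrays differed 5.55-fold, a gap larger than in 93.5% of tested probe sets. The log2 difference was -1.06 ± 0.54 (SE), interval -2.14 to 0.02 (unadjusted p = 0.0535, limma adjusted p = 0.694). Without JH III replicate 1 it was -0.08, and without JH III replicate 2 it was -2.04 (limma adjusted p = 0.167). Without acetone replicates 1 and 2 in turn it was -0.61 and -1.51. The difference thus rested on JH III replicate 1, where Akh was at 0.35 times the control level, against 3.21 times on JH III replicate 2 and 7.98 and 1.97 times on the acetone arrays. In RNA of whole females, fewer hormone-producing cells in a pool and less Akh RNA per cell cannot be told apart.

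**Figure D2:**
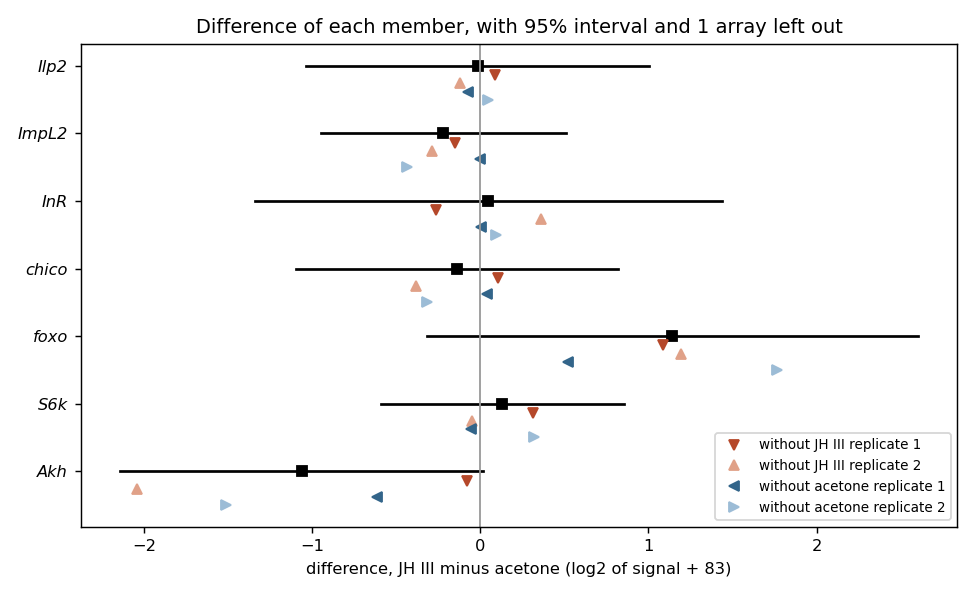
Log2 difference, JH III minus acetone, for each member (black square) with its 95% interval (black line), and the difference with 1 array left out (coloured triangles). Every interval includes 0, and the Akh value moves to -0.08 without JH III replicate 1.

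The members ImpL2, chico and Akh ranked the arrays alike, from acetone replicate 1 over JH III replicate 2 and acetone replicate 2 down to JH III replicate 1. Of all tested probe sets 5.07% had this order, of 24 orders that 4 arrays allow. The GAPDH 3' control probe set had it too, with 1943 and 4523 on the JH III arrays and 7923 and 3587 on the acetone arrays. The ratio of GAPDH 3' to 5' signal ranked the arrays otherwise, at 2.32 and 5.75 on the JH III arrays and 15.5 and 10.2 on the acetone arrays. Ilp2, S6k, InR and foxo each had an order of their own. The order was noticed after the values were seen, and the part of RNA quality or array quality in it was not tested.

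**Figure D3:**
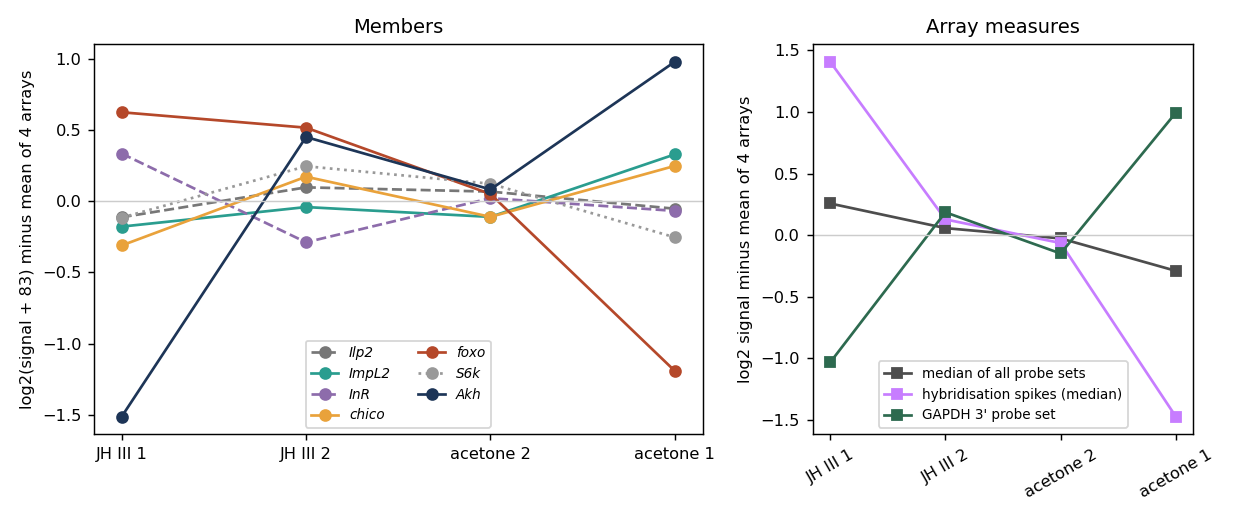
Left, log2(signal + 83) of each member minus its mean over the 4 arrays. Right, the median of all probe sets, the hybridisation spikes and the GAPDH 3' probe set on each array in the same form, as log2 signal. Arrays stand from highest to lowest median signal, and lines only join values of one probe set or measure. The foxo line falls with the median and the spikes, and the Akh, chico and ImpL2 lines have the array order of the GAPDH 3' probe set.

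Other genes of these pathways were read from 6 lists with 103 genes in all, of which 76 had a probe set with 1 symbol and 63 were bright enough to be tested. Over all 6 lists limma called 0 genes in either direction, beside 0.162% of all tested probe sets. The median difference of the 63 genes was -0.01, beside 0.10 for all tested probe sets. An unadjusted p under 0.05 was found for 4 of them, 1 higher and 3 lower with JH III, which is 6.35% beside 7.29% of all tested. The groups did not overlap in 39.7% of the 63 genes, beside 37.5% of all tested. Described next are the genes of lowest p in each list, up to 3, and the lowest adjusted p among them was 0.111. Of these, mTor, tobi, AkhR and GABA-B-R1 averaged less in their lower group than the mean signal of 125.1 that the filter required, so that they passed it through the higher group.

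The list of insulin-like peptides and their binding partners was mostly near background, with 5 of 9 genes measured and 2 tested. Ilp7, Sdr and conv did not exceed the control level on any array. Lgr3, the receptor of the relaxin-like peptide Ilp8, had the lowest p. Its brighter probe set gave 863 and 499 with JH III and 150 and 105 in acetone, both acetone arrays being under the control level and both JH III arrays above it. Set against the control level, Lgr3 was at least 3.04-fold higher in JH III females (log2 difference 1.83 ± 0.66 SE, unadjusted p = 0.0069, limma adjusted p = 0.472). A second Lgr3 probe set had 815 and 407 with JH III and 62.0 and 72.5 in acetone (log2 difference 2.14, limma adjusted p = 0.385). This second probe set averaged 67.3 in acetone, under the mean signal of 125.1 that the filter required, so it passed through its JH III arrays. The brighter one averaged 127 in acetone, little over that mark. The peptide Ilp8 itself had 578 and 93.7 with JH III and 402 and 292 in acetone, with overlapping groups (-0.32, limma adjusted p = 0.939).

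Between the receptor and Akt, 6 of 12 genes were measured and 5 tested, with a median difference of 0.14. Pdk1, the kinase that phosphorylates Akt and S6k, had 661 and 1027 with JH III and 604 and 290 in acetone. The groups did not overlap (0.84 ± 0.51 SE, limma adjusted p = 0.767), and a second Pdk1 probe set gave 0.95. The adaptor drk, the Grb2 of the fly, had 513 and 749 with JH III, against 297 and 306 in acetone (0.87, limma adjusted p = 0.767). Shc, another adaptor of receptor tyrosine kinases, was at -0.30 with overlapping groups (limma adjusted p = 0.911). Akt itself was at -0.01 with a signal of 260 and 509 with JH III and 362 and 381 in acetone. The list's median was 0.85 without JH III replicate 1 and -0.40 without JH III replicate 2, so it depended on which JH III array was used.

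The TOR branch had 16 of 22 genes measured and 15 tested, with a median of 0.09, and in 4 genes both JH III arrays were above both acetone arrays (22.2% of all tested) and in 5 below (15.3%). The kinase mTor, which activates S6k, had 35.5 and 38.2 with JH III, against 463 and 226 in acetone. It was above the control level on acetone replicate 1 alone, and passed the filter on low signal through its acetone arrays (-1.78 ± 0.84 SE, unadjusted p = 0.0379, limma adjusted p = 0.660). The amino acid transporter slif had 613 and 626 with JH III and 975 and 1454 in acetone (-0.86, limma adjusted p = 0.696). Lk6, a kinase of the cap-binding protein eIF4E, had 6524 and 8247 with JH III and 12560 and 10654 in acetone (-0.65, limma adjusted p = 0.757). Its second, dimmer probe set was at -0.19 with overlapping groups. The gene of the cap-binding protein itself, eIF4E1, whose product Thor blocks, was at -0.03 with overlapping groups.

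Regulators and targets of FOXO had a median of -0.31, with 11 of 14 tested genes below the acetone level. Of all 10474 tested probe sets 4599 were below it. The groups did not overlap in 5 lower genes, beside 15.3% of all tested, and in 2 higher ones, beside 22.2%. The alpha-glucosidase tobi, a gene known to answer to insulin and adipokinetic hormone, had 54.8 and 85.2 with JH III and 1134 and 602 in acetone. On these arrays, set against the control level, tobi was at least 2.54-fold lower with JH III, a bound without sampling error. The limma log2 difference was -2.58, interval -3.93 to -1.24 (limma adjusted p = 0.111). 14-3-3zeta, of the family that binds FOXO once Akt has phosphorylated it, had 7117 and 9382 with JH III and 14450 and 10930 in acetone (-0.62, limma adjusted p = 0.767). Sik3, a kinase that restrains HDAC4 and thereby FOXO, had 189 and 387 with JH III and 448 and 602 in acetone (-0.76, limma adjusted p = 0.815), while 2 further Sik3 probe sets were too dim to test. The lipase genes Lip4 and bmm, known FOXO targets, were at -0.04 and -0.34 with overlapping groups. Without acetone replicate 1 the list's median was -0.09.

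In the adipokinetic hormone pathway 18 of 23 genes were measured and 16 tested, and 8 lay above and 8 below the acetone level (median 0.00). AkhR, the receptor of the hormone, had 13.7 and 235 with JH III, against 325 and 283 in acetone. Both JH III arrays were lower than both acetone arrays, and the probe set exceeded the control level on acetone replicate 1 alone (-1.14 ± 0.80 SE, limma adjusted p = 0.776). Lsd-1, the perilipin of lipid droplets, had 2580 and 3976 with JH III and 6839 and 4360 in acetone (-0.75 ± 0.35 SE, unadjusted p = 0.0360, limma adjusted p = 0.649). SNF4Agamma, a subunit of AMP-activated kinase, was at -0.64 by its brighter probe set and at 1.56 by the other, so no direction can be given. Glyp, the phosphorylase that breaks down glycogen, was at -0.33 with overlapping groups.

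Among genes known to regulate insulin-producing cells, 18 of 19 were measured and 13 tested (median 0.33, and -0.04 without JH III replicate 1). GABA-B-R1, a receptor by which GABA restrains these cells, had 466 and 66.0 with JH III and 49.1 and 26.3 in acetone, above the control level on JH III replicate 1 alone (1.25, limma adjusted p = 0.778). The receptor grnd of the fly tumour necrosis factor was under the control level on all 4 arrays (0.89, limma adjusted p = 0.827). Lkr, the leucokinin receptor, had 1006 and 1092 with JH III and 673 and 855 in acetone (0.42, limma adjusted p = 0.852). The peptide sNPF and the cytokine upd2, 2 inputs to insulin secretion, did not exceed the control level on any array.

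Markers of neurons, fat body, ovary and male tissues gave 0 calls, beside 0.162% of all tested probe sets. No marker list was made for the corpora cardiaca or the insulin-producing cells. Of 10 neuronal markers 7 were measured and 5 tested, with a median difference of 0.38, and their summed signal was 5202 and 4334 with JH III and 2876 and 4899 in acetone. Brp and para were under the control level on all arrays. Of 11 fat body markers 10 were measured and 9 tested, with a median of -0.14. Their summed signal was 40989 and 58131 with JH III, against 61445 and 54863 in acetone, and a large part of it was Yp1, with 19111 and 34658 against 37796 and 25426. The median was 0.27 for the 9 tested ovary markers and 0.68 for the 6 tested male markers. The male markers were dim, and their summed signal was 3885 and 1816 with JH III, against 1606 and 1736 in acetone. Among them Acp29AB, with 1054 and 44.3 against 14.9 and 34.6, passed the filter through JH III replicate 1 alone. The marker betaTub85D was under the control level on all 4 arrays. The part of tissue proportions in the members' values was not tested.

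**Figure D4:**
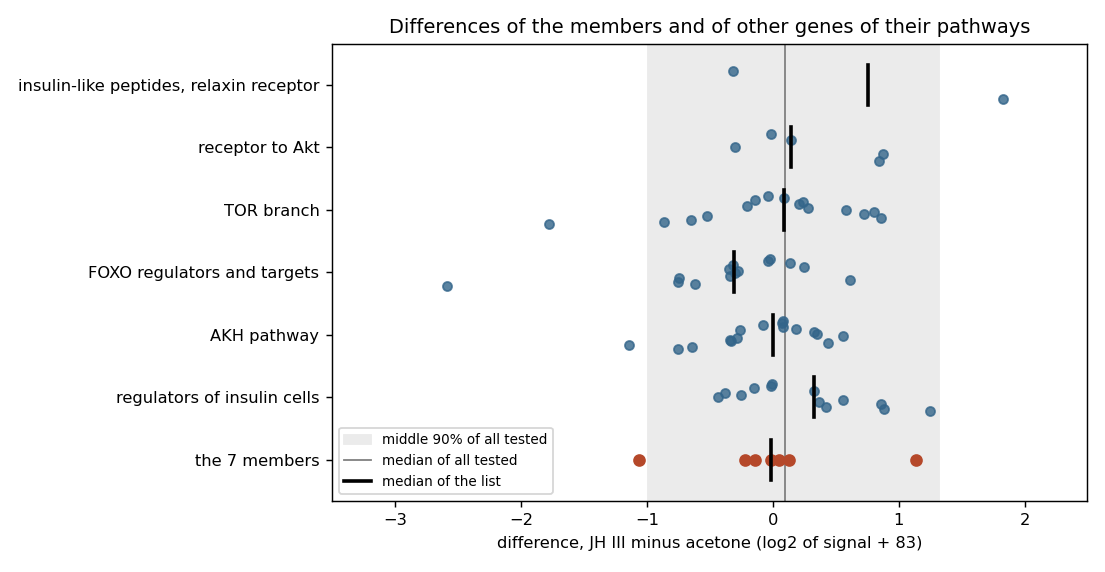
Log2 differences, JH III minus acetone, of the 7 members (red, bottom row) and of tested genes on 6 pathway lists (blue), 1 probe set per gene. Black bars are list medians, the grey line is the median of all tested probe sets (0.10) and the grey band their middle 90%. The members other than foxo and Akh lie within 0.25 of 0, and the farthest points are tobi (-2.58), Lgr3 (1.83) and mTor (-1.78).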

How the data were processed

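Each probe set has 1 deposited intensity per array, on a linear scale. The 2% trimmed mean was 500.1 on every array, the mark of scaling by the authors to a common target. The sources used here do not give the summarising software. Arrays carried biotin-labelled target from Trizol-extracted RNA, per the labels' protocols. The array description files hold other, non-expression values (chip lot, module, scan time), per the file headers. Groups and replicate numbers came from the sample titles. The members and gene lists were chosen with earlier results of these data known. The platform annotation named probe sets; of 12442 with 1 symbol, 12393 matched RefSeq (Release 6 plus ISO1 MT), used for names and gene order only.

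Values were tested as log2(signal + 83), 83 being the 25th percentile of all values, which understates changes of dim probe sets. The lowest 25% by mean signal were left out. limma 3.58.1 in R 4.3.3 (lmFit, eBayes with trend, two-sided) compared JH III with acetone, with 2 residual degrees of freedom, 67.4 after moderation. Each limma SE and interval thus rests mostly on the spread of probe sets of like signal, not on a probe set's own replicates. Replicates are separate pools on separate arrays. Lists used the brightest probe set of each gene. Named list genes were the 3 of lowest p in each list, other genes being chosen after their values were seen. A bound on a fold required both arrays of one group under the control level and both of the other over it. Low values were raised to that level. Such a bound describes the arrays measured and carries no sampling error. Alternatives were other pseudocounts, scalings, filters, variance models, blocks, the methods' t-test, other control levels and each array left out. Files were read in Python 3.11.15 (pandas 2.3.3) and plotted with matplotlib 3.10.9.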

Additional observations from a re-analysis of the deposited data

How the results depend on the processing

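No member passed the threshold, by limma or by the methods' t-test, under any alternative that used all 4 arrays. Over the 14 alternatives 84 of 98 recomputed differences kept their sign. With no filter, the 50% filter, no trend, the methods' t-test or the replicate block, each difference equals that of the main fit. The sign could not turn in those settings. Differences of foxo (0.52 to 1.76) and Akh (-2.04 to -0.08) kept their sign throughout. The sign turned for InR after quantile normalization (-0.21) and median centring (-0.19) and for S6k after median centring (-0.11). With chip lot as a block, which here equals leaving out acetone replicate 1 in its estimates, it turned for ImpL2 (0.00047), chico (0.040) and S6k (-0.058). With 1 array left out, it turned within ranges of -0.12 to 0.090 for Ilp2, -0.44 to 0.00047 for ImpL2, -0.26 to 0.36 for InR, -0.38 to 0.10 for chico and -0.058 to 0.32 for S6k. The titles give both groups replicates 1 and 2. With the replicate block no member was called (lowest adjusted p 0.958), and 2 probe sets on the whole array were, against 17 without it. Over the array the 17 were 3 higher and 14 lower. With the replicate block and after quantile normalization, median centring, no filter or the 50% filter 2 were called, both higher, with the lot block 4, all higher, without trend 0 and 0 by the methods' t-test, and 3 to 36 with 1 array left out. List medians moved by more than the spread between replicates as follows. Median centring gave -0.24 for the AKH pathway, -0.55 for FOXO and -0.15 for TOR, quantile normalization -0.21 for FOXO, and the lot block -0.089 for FOXO and -0.14 for TOR. The 50% filter gave -0.080 for regulators of insulin cells, and the mean of all probe sets gave 0.66 for receptor to Akt. With 1 array left out the ranges were -0.38 to 0.0025 for AKH, -0.51 to -0.089 for FOXO, -0.14 to 0.13 for TOR, -0.044 to 0.58 for regulators and -0.40 to 0.85 for receptor to Akt. Members have 1 probe set each, so averaging probe sets could not change them. Against the highest bacterial control Ilp2 and chico exceeded the level on 3 arrays. Against the median control InR and foxo exceeded the level on 4 arrays, and against 23 controls that include mouse and yeast probe sets, chosen after seeing the data, foxo on 2. InR and foxo exceeded the control level on 1 array each, which limits what their differences show. The causes of these changes were not tested.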
